A study of Mus musculus with 64 samples.

Results

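In Cyfip2 +/R87C mice, the collagen gene family was followed in frontal cortex and in hippocampus from the first postnatal week to adulthood. Its members were all protein-coding genes named Col, a number, the letter a and a number in the GENCODE annotation of the mouse genome GRCm38. This rule found 44 of the 18432 genes in the deposited table, and the annotation holds no other gene of this form. By the known assembly of their products, 11 members were fibrillar, 6 formed the basement membrane network, 7 belonged to the beaded filaments and their relatives, 9 to the fibril-associated collagens and their relatives, 4 to the transmembrane collagens, 3 to the short-chain networks and 2 to the multiplexins, and Col7a1 (anchoring fibrils) and Col26a1 stood alone.

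Cyfip2 encodes a subunit of the WAVE complex, which starts branched actin networks, and the knock-in (KI) mice carry one Cyfip2 allele with an arginine-to-cysteine codon change in every cell of the body and one wild-type allele. KI mice and their wild-type (WT) littermates, all C57BL/6N, were sampled at postnatal week (PWK) 1, 7, 14 and 28, an age span over which the study followed seizures in KI mice. With 4 bulk RNA-seq libraries for each genotype, age and region, there were 16 groups and 64 libraries. Neither the labels nor the methods say which libraries came from the same mouse or litter, so the p-values below measure the spread between libraries.

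Collagens are secreted proteins whose chains wind around each other into a triple helix. Fibrillar chains build the fibrils of connective tissue, which in the brain are largely found in the meninges and around larger vessels, and fibril-associated chains decorate such fibrils. Type IV chains form the sheet-like network of basement membranes, which ensheathe brain vessels and underlie the pia, whereas transmembrane collagens are held in the plasma membrane and include neuronal proteins.

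The values are normalized counts, that is estimated gene counts that the authors scaled for library size, and they summed to between 29.2 M and 32.6 M in each library, so that the original depth is not known. Fold changes are given as the log2 difference of (normalized count + 1) with its standard error, and a gene is called when its Benjamini-Hochberg adjusted p over all genes tested was under 0.05 in limma. Brackets give this difference ± SE and the adjusted p, and values by library are listed from replicate 1 to replicate 4. All 64 libraries expressed the Y-linked gene Ddx3y. The 5 hippocampal markers summed to 14526 to 23583 normalized counts in the hippocampal libraries and to 2048 to 4614 in the cortical ones. Markers of the choroid plexus, the epithelium that makes cerebrospinal fluid, varied far more, with sums from 367 to 130003 across the hippocampal libraries. KI replicate 1 of the hippocampus at PWK 14 stood apart, with an astrocyte marker sum of 192957 beside 73320 to 84270 in the other KI libraries and 41003 to 45257 in WT, and its mural cell and microglial sums were also the highest of their age.

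Per kilobase of exon, the type IV chains Col4a1 and Col4a2 and the beaded filament chain Col6a1 gave the highest levels in both regions of WT mice when the 4 ages were averaged. In cortex, Col6a1 reached 674 normalized counts per kb as the mean of the 16 WT libraries, ahead of Col4a2 with 541 and Col4a1 with 411. The next members in cortex were Col5a1 (170.0), Col19a1 (161), Col16a1 (156), Col9a3 (145), Col11a2 (131), Col25a1 (120.2) and Col6a2 (104). In hippocampus the order was Col4a2 (600.0 per kb), Col4a1 (505), Col6a1 (346), Col9a3 (278), Col25a1 (195), Col11a2 (150.3), Col19a1 (122), Col5a1 (116), Col23a1 (113) and Col1a2 (103). The order differed between ages. In cortex at PWK 1 Col4a1 led with 836 per kb and Col6a1 followed Col4a2 with 348, and in hippocampus Col9a3 was above Col6a1 at PWK 7 (297 and 273) and above Col4a1 at PWK 28 (330 and 307). Ages were pooled for these means and the libraries of neighbouring members overlapped widely, so the order within each list is a description. Col10a1, the chain of hypertrophic cartilage, was the lowest member in both regions, at 1.27 and 0.809 per kb.

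Col4a1 and Col4a2, whose products join in one heterotrimer, lie head to head on chromosome 8, and their annotated genes overlap by 22 bases. Their start sites are 21 bases apart on opposite strands, so that each gene's start lies inside the promoter window of the other. Windows that run from upstream of the start site to just past it (300 bases in RefSeq's GRCm38.p6 table) are shown because they show this shared stretch, the one from which both chains are transcribed. The capitals mark the 78 bases that both windows hold, read once from each strand.
Col4a1, chr8:11312777-11313076, minus strand: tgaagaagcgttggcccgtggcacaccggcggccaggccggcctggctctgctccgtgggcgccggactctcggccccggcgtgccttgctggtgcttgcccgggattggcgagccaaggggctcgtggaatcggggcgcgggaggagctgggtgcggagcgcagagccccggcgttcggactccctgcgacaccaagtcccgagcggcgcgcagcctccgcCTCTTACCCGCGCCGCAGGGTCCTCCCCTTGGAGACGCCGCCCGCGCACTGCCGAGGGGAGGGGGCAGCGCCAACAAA
Col4a2, chr8:11312555-11312854, plus strand: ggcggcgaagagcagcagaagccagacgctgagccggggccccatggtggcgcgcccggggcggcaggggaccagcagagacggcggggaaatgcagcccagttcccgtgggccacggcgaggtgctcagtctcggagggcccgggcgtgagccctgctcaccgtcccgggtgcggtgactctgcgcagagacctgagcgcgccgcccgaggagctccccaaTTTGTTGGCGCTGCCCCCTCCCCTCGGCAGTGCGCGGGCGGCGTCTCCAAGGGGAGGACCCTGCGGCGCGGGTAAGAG

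The motif GGGCGG (a GC box, searched on both strands) occurred 1 time in the Col4a1 window and 3 times in the Col4a2 window, and each window held 1 CCAAT and no TATAAA. Among all 32851 promoter windows, 35.7% held GGGCGG, 37.4% held CCAAT and 13.6% held TATAAA. A window was found for 35 of the 44 collagen genes, 38 windows in all, of which 60.5% held GGGCGG, 34.2% held CCAAT and 13.2% held TATAAA. Other members also lie side by side, with Col4a3 and Col4a4 71 bases apart, Col4a5 and Col4a6 1308 bases apart, and Col3a1 and Col5a2 24614 bases apart.

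Between PWK 1 and PWK 7, the collagen genes of WT mice mostly fell. In cortex, 26 of the 44 members fell and 10 rose, against 32.7% and 32.5% of all genes tested, and the median log2 fold change of the members was -0.85. In hippocampus, 31 fell and 4 rose, against 30.4% and 30.9% of all genes, with a median of -0.88. The median over all genes was near 0 in both regions. Summed over the family per kb of exon, the cortex went from 4771 ± 310.0 (SD, n = 4) at PWK 1 to 3177 ± 116 at PWK 7. Of the 29 members called in both regions, 25 moved the same way, which is 69.4% of the cortical and 71.4% of the hippocampal calls, where all genes gave 73.4% and 78.0%. Markers of other cells shifted over the same interval. In WT cortex the fibroblast and meninges sums were 5583 to 7985 at PWK 1 and 2621 to 4003 at PWK 7, the mural sums 9273 to 10181 and 6775 to 7473, and the oligodendrocyte sums 5013 to 12835 and 116024 to 146435. In WT hippocampus these were 9450 to 13696 and 5244 to 8828, 10309 to 11782 and 6268 to 6633, and 3422 to 7715 and 119717 to 157378. Their part in the collagen values was not tested. In bulk tissue, fewer cells of a type and less RNA per cell cannot be told apart.

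Among the fibrillar chains, 6 of 11 fell in cortex and 9 of 11 in hippocampus. Col3a1, the type III chain of soft connective tissue, went from 1198, 1839, 726 and 1366 normalized counts at PWK 1 to 126, 242, 55.6 and 248 at PWK 7 in cortex (-3.07 ± 0.42, adjusted p = 4.13e-05). In hippocampus it went from 1773, 3617, 2518 and 2432 to 119.8, 206, 181 and 206 (-3.84 ± 0.21, adjusted p = 4.42e-08), and no PWK 7 library came near a PWK 1 library in either region. The type I chains, which form the bulk of connective tissue fibrils, fell beside it. Col1a1 in hippocampus held 1470.0, 2109, 1516 and 1381 at PWK 1 and 294, 275, 429 and 403 at PWK 7 (-2.21 ± 0.16, adjusted p = 4.33e-07), and Col1a2 went from 2539, 4059, 2735 and 2464 to 632, 495, 702 and 780.0 (-2.16 ± 0.17, adjusted p = 6.05e-07). Col5a2, a chain of the type V fibrils that set fibril width, went in cortex from 1267, 1441, 1276 and 1397 to 253, 248, 254 and 231 (-2.44 ± 0.07, adjusted p = 8.52e-11). Col24a1 in hippocampus went from 208, 147, 251 and 198 to 58.8, 11.3, 122 and 40.6 (-2.17 ± 0.54, adjusted p = 0.0046), with one WT library at PWK 7 far below the others. The exception among fibrillar chains was Col5a3, which rose in cortex from 109, 85.6, 92.1 and 74.8 to 170.4, 187, 193 and 145 (0.94 ± 0.15, adjusted p = 1.21e-04), as did Col11a2 and Col27a1. In hippocampus Col11a2 was the only fibrillar chain that rose, from 617, 553, 690.3 and 594 to 1026, 1791, 758 and 1179 (0.89 ± 0.20, adjusted p = 0.00265).

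Among the beaded filament chains, 4 of 7 fell in cortex and 6 of 7 in hippocampus, but the most abundant of them moved in opposite directions in the regions. Col6a5 in cortex went from 267, 180.0, 205 and 185 at PWK 1 to 10.95, 18.3, 11.5 and 22.7 at PWK 7 (-3.68 ± 0.24, adjusted p = 7.30e-08). Col6a3 went from 749, 903, 921 and 883 to 137, 135, 237 and 148 (-2.43 ± 0.16, adjusted p = 7.51e-08), and the ages did not overlap for either gene. Col6a1 in cortex was 2578, 1056, 1211 and 1245 at PWK 1 and 2444, 3012, 3061 and 3078 at PWK 7 (1.02 ± 0.22, adjusted p = 0.00147). Replicate 1 at PWK 1 was higher than replicate 1 at PWK 7, and the other 3 libraries of each age were well apart. In hippocampus Col6a1 fell (log2 fold change -0.60, adjusted p = 0.00143), where the younger libraries spanned 1628 to 2031 and the older ones 992 to 1478.

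Basement membrane chains fell in 5 of 6 cases in cortex and 4 of 6 in hippocampus. Col4a1 went from 6475, 5975, 6544 and 5956 to 1796, 1773, 1928 and 1854 in cortex (-1.76 ± 0.05, adjusted p = 8.38e-11), and Col4a2 from 4911, 4951, 4874 and 4529 to 2751, 2937, 3137 and 2917 (-0.71 ± 0.05, adjusted p = 1.10e-07). The ratio of the Col4a1 to the Col4a2 normalized count had a geometric mean of 1.30 at PWK 1 and 0.626 at PWK 7 in cortex, and of 1.34 and 0.782 in hippocampus. No PWK 7 library overlapped a PWK 1 library in this ratio, for a pair of chains chosen after its values had been seen. Both multiplexins, whose C-terminal fragments are released into the matrix, fell in both regions. Col18a1, the multiplexin of vascular basement membranes, went in cortex from 664, 668, 535 and 600.3 to 140.0, 118, 150.2 and 113 (-2.24 ± 0.11, adjusted p = 8.70e-09). The short-chain network gene Col8a1 in cortex went from 417, 664, 627 and 662 to 136, 96.8, 99.9 and 132 (-2.33 ± 0.17, adjusted p = 1.46e-07). In the remaining groups, 5 of the 9 fibril-associated chains fell in cortex and 6 in hippocampus, among them Col9a1, a cartilage fibril chain, which went in hippocampus from 73.2, 73.9, 121 and 89.2 to 15.5, 21.7, 37.4 and 23.8 (-1.86 ± 0.27, adjusted p = 9.91e-05). Col26a1 in hippocampus went from 571, 668, 519 and 556 to 131, 104, 159 and 99.1 (-2.24 ± 0.15, adjusted p = 1.70e-07).

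The members that rose were drawn largely from the transmembrane and fibril-associated groups. Col25a1, a transmembrane collagen of neurons, rose in cortex from 995, 578, 659 and 587 to 2258, 1954, 2074 and 2079 (1.60 ± 0.14, adjusted p = 9.65e-07). In hippocampus Col25a1 rose from 1434, 1356, 1434 and 1354 to 2975, 2846, 2698 and 2808 (1.02 ± 0.04, adjusted p = 7.10e-09), and the ages were fully apart in both regions. Col19a1, a fibril-associated chain that neurons also make, rose from 679, 718, 748 and 682 to 1373, 1371, 1389 and 1263 in cortex (0.93 ± 0.06, adjusted p = 3.36e-08). Its rise in hippocampus was small, from 706, 731, 774 and 806 to 824, 941, 949.8 and 836 (0.23 ± 0.07, adjusted p = 0.0113), though without overlap. Col20a1 went from 81.3, 29.04, 47.1 and 35.3 to 95.3, 98.96, 96.5 and 101 in cortex (1.12 ± 0.26, adjusted p = 0.00271) and from 68.2, 32.02, 38.9 and 40.3 to 197, 174, 176 and 154 in hippocampus (2.00 ± 0.21, adjusted p = 8.19e-06). Col20a1 shares exon bases on the same strand with the annotated transcript BX649560.1, which has its own entry in the table, so reads of these genes may have been split. Col17a1, a transmembrane collagen of epithelial anchoring junctions, rose in cortex from 10.5, 9.01, 20.7 and 12.5 to 55.6, 42.3, 35.1 and 72.3 (1.90 ± 0.31, adjusted p = 1.62e-04).

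**Figure D1:**
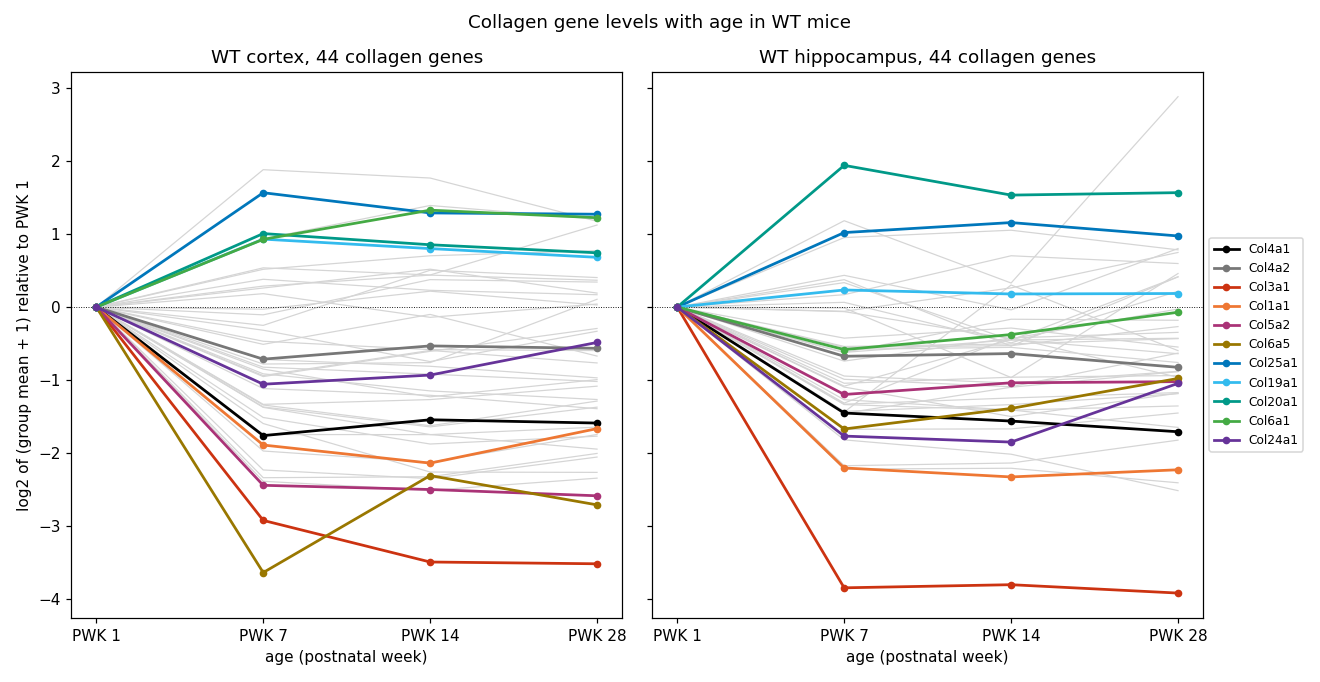
Change of each of the 44 collagen genes with age in WT mice. The vertical axis is the log2 of the group mean (normalized count + 1, 4 libraries) relative to PWK 1 and the horizontal axis the postnatal week, with cortex on the left, hippocampus on the right, named members in colour and the rest in grey. Col3a1 falls most in hippocampus (log2 fold change at PWK 7 of -3.84), while Col25a1 and Col20a1 lie above their PWK 1 level in both regions.

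Few WT members were called between PWK 7 and PWK 28. WT libraries of the age between these were not compared with either age, so the counts below do not cover changes on the way. From PWK 7 to PWK 28, 4 members rose and 3 fell in cortex, against 10.9% and 11.4% of all genes, and 1 rose and 1 fell in hippocampus, against 6.35% and 8.38%. In cortex Col6a2 rose from 703, 705, 686 and 769 to 1109, 896, 1047 and 859 (0.44 ± 0.08, adjusted p = 0.0029) and Col6a1 from 2444, 3012, 3061 and 3078 to 3239, 3324, 3739 and 3944 (0.30 ± 0.08, adjusted p = 0.022). Col4a1 rose from 1796, 1773, 1928 and 1854 to 2110.2, 1982, 2125 and 2066 (0.17 ± 0.05, adjusted p = 0.0175), and Col4a2 from 2751, 2937, 3137 and 2917 to 3316, 3361, 3215 and 3124 (0.15 ± 0.05, adjusted p = 0.0399), where the ages overlapped. The first pair are partners in type VI filaments and the second pair in the type IV network. Col25a1 fell from its PWK 7 level to 1623, 1689, 1715 and 1791 (-0.29 ± 0.05, adjusted p = 0.00245), and Col26a1 went from 241, 279, 263 and 239 to 219, 211, 194 and 219 (-0.27 ± 0.09, adjusted p = 0.0471). Col19a1 at PWK 28 held 1263, 1269, 1031 and 976 (-0.26 ± 0.08, adjusted p = 0.0458), and its ages overlapped. In hippocampus Col5a3 rose from 181, 156, 159 and 149.7 to 229, 212, 222 and 208 (0.43 ± 0.09, adjusted p = 0.0134), and Col4a1 went from 2806, 2939, 2501 and 2713 to 2275, 2182, 2205 and 2512 (-0.26 ± 0.06, adjusted p = 0.0184) with overlap. These counts turned on single libraries, since 4 members were called in cortex without WT replicate 1 at PWK 7 or WT replicate 3 or 4 at PWK 28, and 3 without WT replicate 2 at PWK 7. In hippocampus 1 member was called without WT replicate 1 of either age, 5 without WT replicate 3 and 4 without WT replicate 4 at PWK 7. The shares of all genes called in these omissions are not given here.

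Between regions of WT mice, members differed in both directions at every age. Members higher and lower in hippocampus than in cortex numbered 16 and 8 at PWK 1 (16.1% and 18.6% of all genes), 13 and 10 at PWK 7 (20.4% and 20.4%), 13 and 9 at PWK 14 (17.0% and 17.6%), and 15 and 9 at PWK 28 (18.8% and 19.0%). These comparisons use the same WT libraries as those of age and genotype. Col4a1, Col4a5, Col11a1, Col18a1 and Col25a1 were higher in hippocampus at all 4 ages. The share of all genes called the same way at all 4 ages is not given here, so such steady calls only describe the members. Of the 6 basement membrane chains, 4, 4, 3 and 4 were higher at the successive ages and none was lower. Col4a1 differed by 0.27, 0.57, 0.25 and 0.15 on the log2 scale (adjusted p = 0.0024, 5.96e-06, 0.0143 and 0.0445), and Col4a5 by 0.58, 0.60, 0.81 and 0.59 (adjusted p = 3.00e-04, 0.0116, 0.00336 and 0.00611). Both multiplexins were higher at PWK 7 and PWK 14 and 1 of them at the other ages. Col24a1, a fibrillar chain known from developing bone, was the one member lower in hippocampus at all 4 ages, without overlap. Its cortical libraries held 874, 379, 732 and 401 at PWK 1, 423, 197, 213 and 311 at PWK 7, 226, 239, 484 and 299 at PWK 14 and 337, 214, 536 and 617 at PWK 28. In hippocampus it was 147 to 251 at PWK 1, 11.3 to 122 at PWK 7, 21.4 to 109 at PWK 14 and 42.7 to 202 at PWK 28, and the log2 differences were -1.50, -2.63, -2.68 and -2.31 (adjusted p from 3.57e-04 at PWK 14 to 0.00256 at PWK 7).

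From PWK 7 onwards Col12a1 and Col6a1 were lower in hippocampus as well. Col12a1, a fibril-associated chain, held 399, 414, 530.4 and 473 in hippocampus and 1302, 1397, 1208 and 1408 in cortex at PWK 7 (-1.55 ± 0.09, adjusted p = 1.51e-07), with differences of -1.73 at PWK 14 and -1.35 at PWK 28. At PWK 14 it ran from 377 to 568 in hippocampus and 1335 to 1816 in cortex, and at PWK 28 from 372 to 735 and 1101 to 1508. Col6a1 held 1839, 1315, 1359 and 999.7 in hippocampus and 3803, 3081, 4158 and 4262 in cortex at PWK 14 (-1.49 ± 0.16, adjusted p = 1.31e-05), with differences of -1.29 at PWK 7 and -1.11 at PWK 28. The regions were apart in every library of these genes at these ages. Col28a1, a relative of the beaded filament chains, was 23.4, 7.98, 21.9 and 19.4 in hippocampus and 50.7, 35.5, 37.9 and 28.00 in cortex at PWK 7 (-1.09 ± 0.33, adjusted p = 0.0214) and 10.1, 25.2, 24.5 and 17.4 and 55.5, 56.3, 56.9 and 34.7 at PWK 14 (-1.41 ± 0.30, adjusted p = 0.00316). Col26a1 was 122, 94.6, 121 and 95.5 in hippocampus and 219, 211, 194 and 219 in cortex at PWK 28 (-0.97 ± 0.12, adjusted p = 5.80e-05). At PWK 1 the lowest ratios of hippocampus to cortex after Col24a1 were those of Col22a1, Col6a4 and Col6a3. Col22a1 was 179, 123, 186 and 143 in hippocampus and 394, 489, 435 and 386 in cortex (-1.44 ± 0.14, adjusted p = 1.25e-05), and Col6a4 was 83.5, 125, 113 and 211 and 248, 285, 321 and 271 (-1.15 ± 0.23, adjusted p = 0.00214). Col6a3 was 397, 525, 374 and 419 in hippocampus and 749, 903, 921 and 883 in cortex (-1.02 ± 0.11, adjusted p = 2.32e-05).

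Col6a3 then changed sides, since it was 631, 788, 585 and 110.1 in hippocampus and 126, 151, 122 and 202 in cortex at PWK 14 (1.52 ± 0.49, adjusted p = 0.0314), with some overlap. At the same age Col5a2 was 519, 463, 485 and 525 in hippocampus and 233, 236, 262 and 216 in cortex (1.07 ± 0.08, adjusted p = 1.33e-06), although at PWK 1 it had been lower in hippocampus. Col18a1 was 203, 271, 325 and 195 in hippocampus and 103, 115, 134 and 129 in cortex at PWK 14 (1.02 ± 0.17, adjusted p = 4.78e-04), and Col25a1 was 3390.5, 3008, 3036 and 3024 and 1899.9, 1909, 1594 and 1499 (0.86 ± 0.08, adjusted p = 6.11e-06). The regions did not overlap for Col5a2, Col18a1 or Col25a1. At PWK 1 the cartilage fibril chain Col2a1 was 90.4, 96.1, 83.6 and 83.5 in hippocampus and 26.3, 73.1, 10.1 and 50.8 in cortex (1.44 ± 0.46, adjusted p = 0.0314). Col27a1, a thin-fibril chain of cartilage, was 412, 412, 441 and 357 in hippocampus and 229, 177, 152 and 199 in cortex (1.11 ± 0.12, adjusted p = 4.02e-05). Col3a1 was 1773, 3617, 2518 and 2432 and 1198, 1839, 726 and 1366 (1.04 ± 0.26, adjusted p = 0.00867), where the regions overlapped. At PWK 7 Col6a5 was 69.4, 49.01, 39.03 and 61.5 in hippocampus and 10.95, 18.3, 11.5 and 22.7 in cortex (1.75 ± 0.28, adjusted p = 4.38e-04).

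Several members of the type IV, short-chain and type IX groups that were higher in hippocampus, Col8a1, Col8a2, Col4a4 and Col9a3, varied between libraries beside the choroid plexus markers. At PWK 7, Col8a2, a short-chain network gene, was 566, 209, 125 and 615 in hippocampus and 88.2, 89.2, 54.1 and 72.6 in cortex (2.04 ± 0.44, adjusted p = 0.00297), and the choroid plexus marker sums of these hippocampal libraries were 94403, 37056, 1605 and 102114. Replicate 3, with the lowest sum, was also the lowest in Col8a2. Col4a4, a type IV chain of specialized basement membranes, was 257, 103, 47.2 and 264 in hippocampus and 47.5, 28.5, 27.5 and 27.4 in cortex (2.05 ± 0.47, adjusted p = 0.00455), and Col9a3 was 1577, 959, 358 and 1681 and 378, 423, 413 and 417 (1.26 ± 0.38, adjusted p = 0.0204). Both overlapped between regions through hippocampal replicate 3 and, for Col4a4, through cortical replicate 1, whose choroid plexus sum of 1189 was the highest of its group. At PWK 28, where the hippocampal sums were 56629, 38509, 126939 and 130003, the differences from cortex were 2.18 ± 0.36, adjusted p = 5.59e-04 for Col4a4, 2.03 ± 0.31, adjusted p = 2.53e-04 for Col8a2, 2.02 ± 0.38, adjusted p = 0.00129 for Col8a1 and 1.85 ± 0.25, adjusted p = 9.92e-05 for Col9a3. Their hippocampal libraries ran from 83.7 to 244 for Col4a4, 287 to 704 for Col8a2, 283 to 905 for Col8a1 and 728 to 1659 for Col9a3, with cortical ranges of 23.1 to 62.8, 71.8 to 154, 97.6 to 258 and 259 to 469.6. At PWK 1 Col8a2 was 271, 427, 255 and 166 in hippocampus and 68.02, 43.9, 38.1 and 58.2 in cortex (2.36 ± 0.26, adjusted p = 4.24e-05). At PWK 14, where the hippocampal sums were 2476, 18701, 109951 and 2186, none of Col8a1, Col8a2, Col4a3, Col4a4 and Col9a3 was called, and Col8a1 was 35.00, 108, 741 and 32.4 in these libraries. The part of the choroid plexus in these differences was not tested.

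**Figure D2:**
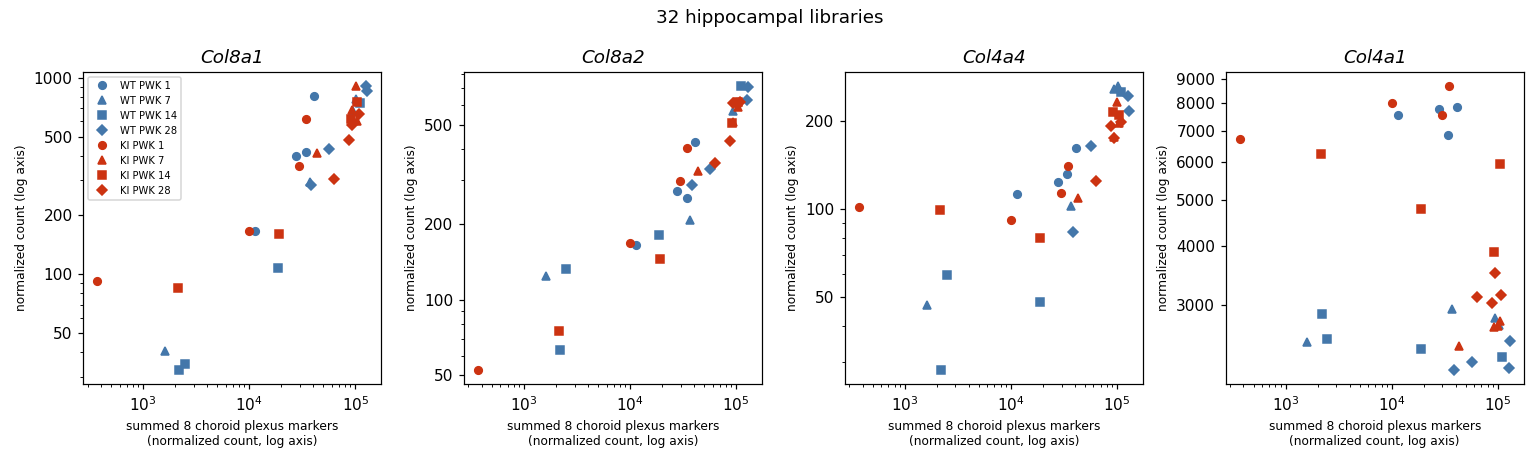
Level of 4 collagen genes (vertical axes, normalized count, log scale) against the summed normalized count of 8 choroid plexus markers (horizontal axes, log scale) in the 32 hippocampal libraries, coloured by genotype and marked by age. Col8a1, Col8a2 and Col4a4 are highest where the marker sum is near its maximum of 130003 and mostly low where it is small, whereas Col4a1 shows no such order.

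In the comparison of KI with WT littermates, members were called at the later ages, and no member was called at PWK 1 or PWK 7 in either region. limma called 0 cortical members at PWK 1 (0.00546% of all genes) and 0 at PWK 7 (0.00545%), and likewise 0 hippocampal members (0.0109% and 0.0218%). At an unadjusted p under 0.05, the members numbered 6 and 9 in cortex (5.27% and 8.05% of all genes) and 5 and 10 in hippocampus (5.46% and 6.22%). With all libraries, the lowest adjusted p of a member in cortex at PWK 7 was 0.0873 (limma, Col1a1). Without WT replicate 2 limma called 1 member there. At PWK 14, 2 members rose and 2 fell in cortex (2.48% and 2.7% of all genes), and 10 rose and 3 fell in hippocampus (7.64% and 7.95%). At PWK 28, 11 rose and 4 fell in cortex (12.2% and 10%), and 8 rose and 3 fell in hippocampus (8.92% and 6.91%). The members' median log2 fold change was 0.04 in cortex and -0.097 in hippocampus at PWK 1, and 0.02 and 0.25 at PWK 7. At PWK 14 it was 0.07 and 0.52, and at PWK 28 it was 0.24 and 0.13, beside medians near 0 over all genes. In hippocampus, 10 members were positive and 34 negative at PWK 1, and 34 were positive and 10 negative at PWK 7. The hippocampal median at PWK 7 was thus not below those at PWK 28, although no member was called. Of the 44 members, 24 were called in at least 1 of the 4 comparisons at PWK 14 and PWK 28. Of these, 15 were called only higher, 8 only lower, and Col16a1 in both directions. The remaining 20 were called in none. No share of all genes was pooled over the 4 comparisons in this way, so these pooled counts only describe the members.

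The calls rested on the libraries to different degrees. The shares of all genes called without single libraries are not given here, so a general change in calls cannot be told apart. The 4 calls in cortex at PWK 14 became 0 without WT replicate 1 or WT replicate 2, 1 without KI replicate 2 or WT replicate 4, and 2 without WT replicate 3, and reached 6 in another omission. The 15 calls in cortex at PWK 28 became 22 (16 higher, 6 lower) without KI replicate 2, which stood nearest to WT. For the hippocampus at PWK 14, 13 members were called with and without KI replicate 1 (11 higher and 2 lower without it), though not the same ones. Without it Col3a1, Col4a5 and Col23a1 lost the call and Col4a6, Col5a3 and Col12a1 gained it. Only 8 were called there without WT replicate 1 and 7 without WT replicate 2. The hippocampal calls at PWK 28 stayed between 10 and 13. At PWK 14 and PWK 28, 8 hippocampal members were called at both ages, all in the same direction, which is 61.5% of the PWK 14 and 72.7% of the PWK 28 calls, where all genes gave 46.1% and 45.4%. In cortex only Col18a1 was called at both ages, which is 25.0% and 6.67% of the calls, where all genes gave 70.6% and 16.4% in the same direction. At PWK 28 both regions shared Col4a1, Col4a2, Col5a2, Col5a3 and Col27a1, all higher, which is 33.3% of the cortical and 45.5% of the hippocampal calls beside 34.3% and 48.1% of same-direction calls over all genes. Per kb of exon, the family sum in cortex at PWK 28 was 4527 ± 533 (SD, n = 4) in KI and 3373 ± 78.1 in WT, and in hippocampus at PWK 14 it was 4653 ± 737 and 3148 ± 345. Col4a1 and Col4a2 together made 32.6% of that sum in KI cortex at PWK 28 and 22.8% in WT.

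**Figure D3:**
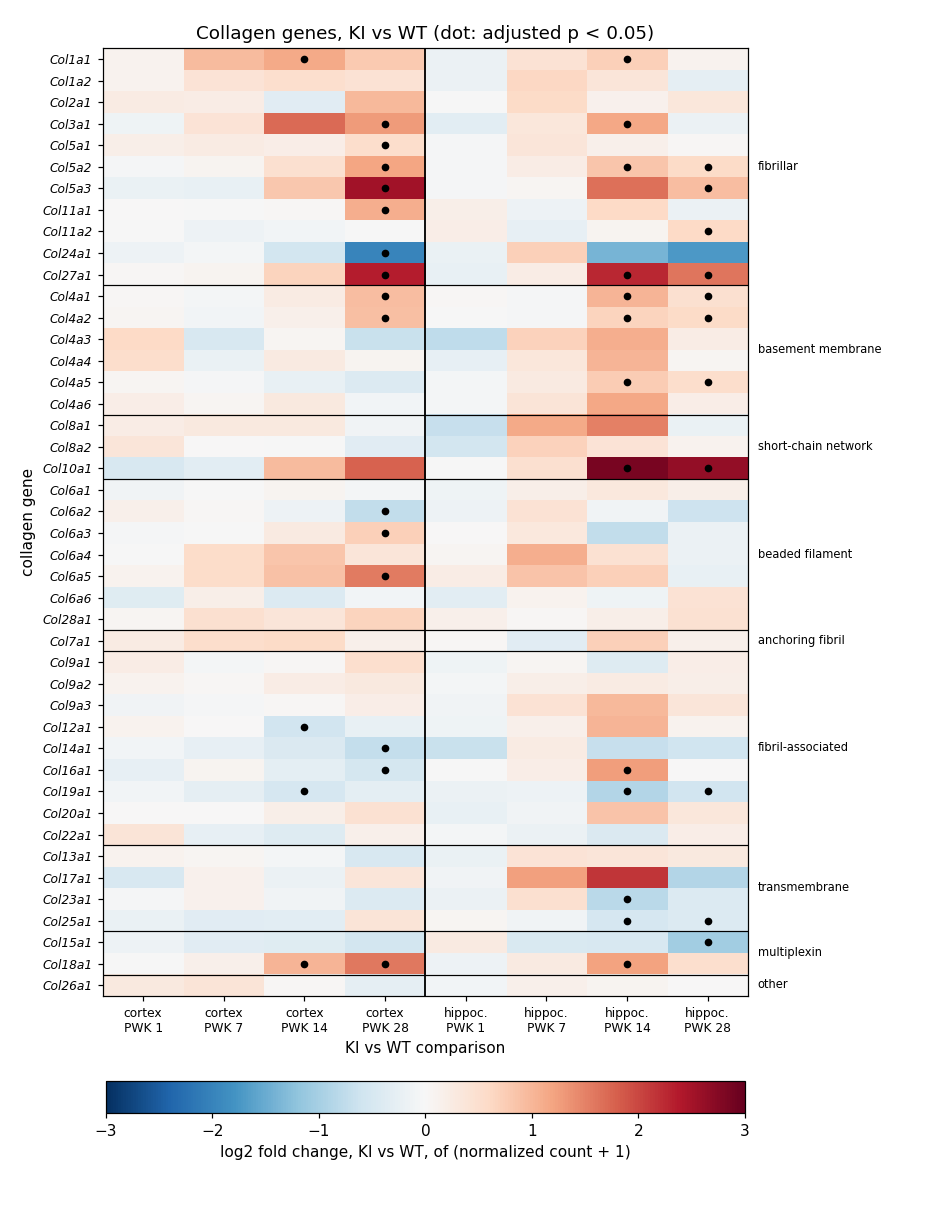
Log2 fold change of KI against WT for the 44 collagen genes (rows, grouped by class) in the 8 comparisons of region and postnatal week (columns), on a colour scale from blue (lower in KI) to red (higher), with a dot where the adjusted p was under 0.05. Dots fall in the PWK 14 and PWK 28 columns, and the deepest red belongs to Col10a1 in hippocampus (2.85 at PWK 14) and Col5a3 and Col27a1 in cortex at PWK 28 (2.52 and 2.35).

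Of the 11 fibrillar chains, 6 rose and 1 fell in cortex at PWK 28, and 4 rose in hippocampus at PWK 14 and 4 at PWK 28. Col27a1 changed most steadily. At PWK 28 its cortical libraries held 2509, 639, 3021 and 1525 in KI and 373, 322, 308 and 295 in WT (2.35 ± 0.38, adjusted p = 0.00225). In hippocampus it was 1159.8, 1711, 1194 and 1419 in KI and 279, 269.6, 342 and 251 in WT at PWK 14 (2.25 ± 0.14, adjusted p = 1.14e-04), and 1185, 713, 834 and 933 and 291, 249, 386 and 276 at PWK 28 (1.60 ± 0.16, adjusted p = 1.38e-04). Every KI library was above every WT library in all 3 comparisons, and each call held without any single library. At PWK 14 in cortex it was 641, 627, 369.9 and 364 in KI and 259, 272, 335 and 369 in WT, which did not pass (0.66 ± 0.20, adjusted p = 0.0908). The KI effect was larger in hippocampus than in cortex at PWK 14 by 1.60 ± 0.27, adjusted p = 0.00608, in the interaction term of the 16 libraries of that age.

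Col5a3, a minor type V chain, showed the largest fold change of the family in cortex at PWK 28. Its libraries there held 2159.7, 408, 2011 and 1200.1 in KI and 231, 204, 218 and 186 in WT (2.52 ± 0.42, adjusted p = 0.00257). Hippocampal libraries at PWK 28 held 478, 326, 488 and 376 and 229, 212, 222 and 208 (0.92 ± 0.13, adjusted p = 0.00106). KI and WT were fully apart in both. At PWK 14 in hippocampus the KI libraries held 2652, 529, 483 and 408 and the WT libraries 296, 242, 238 and 162, which missed the threshold (1.66 ± 0.52, adjusted p = 0.0589) although the groups did not overlap. Replicate 1 was the KI library that stood apart in its astrocyte markers, and without it Col5a3 passed (1.03 ± 0.19, adjusted p = 0.00597). The promoter windows of Col27a1 and Col5a3 are shown because these chains rose most among the fibrillar collagens, with capitals on each match to GGGCGG or CCAAT on either strand.
Col27a1, chr4:63215162-63215461, plus strand: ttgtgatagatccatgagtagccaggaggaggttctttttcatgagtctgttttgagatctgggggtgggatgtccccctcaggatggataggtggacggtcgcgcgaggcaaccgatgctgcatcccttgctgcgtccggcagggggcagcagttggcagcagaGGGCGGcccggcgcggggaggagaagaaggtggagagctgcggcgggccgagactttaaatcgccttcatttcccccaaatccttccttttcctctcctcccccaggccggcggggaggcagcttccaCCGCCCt
Col5a3, chr9:20815018-20815317, minus strand: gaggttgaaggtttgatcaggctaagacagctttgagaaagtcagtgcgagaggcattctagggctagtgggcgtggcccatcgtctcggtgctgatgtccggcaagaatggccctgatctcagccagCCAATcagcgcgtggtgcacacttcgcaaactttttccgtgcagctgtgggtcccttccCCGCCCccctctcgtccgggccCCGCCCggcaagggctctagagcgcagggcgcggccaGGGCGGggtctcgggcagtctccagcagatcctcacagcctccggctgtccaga

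The Col27a1 window held 2 matches to GGGCGG and none to CCAAT or TATAAA, and the Col5a3 window held 3 to GGGCGG, 1 to CCAAT and none to TATAAA, against the shares of all windows given above. Col5a2 rose in 3 comparisons, with 660.3, 354, 617 and 463 in KI and 236, 204, 225 and 227 in WT in cortex at PWK 28 (1.19 ± 0.18, adjusted p = 0.00142). In hippocampus it was 835, 700.3, 661 and 782 and 471, 507, 608 and 427 at PWK 28 (0.57 ± 0.11, adjusted p = 0.00616), and 0.84 on the log2 scale at PWK 14 (adjusted p = 0.0119), again without overlap and in each case whichever library was left out. Col3a1, which is transcribed toward Col5a2 from the neighbouring locus, was 411, 221, 209 and 201 in KI and 125, 45.03, 127 and 146 in WT in cortex at PWK 28 (1.29 ± 0.36, adjusted p = 0.0272), and lost the call without KI replicate 1 (adjusted p = 0.065). The hippocampal libraries at PWK 14 held 643, 345, 539 and 222 in KI and 137, 183, 256 and 159 in WT (1.17 ± 0.32, adjusted p = 0.0372), with overlap, and without KI replicate 1 it was 0.95 ± 0.29, adjusted p = 0.0517. Col1a1 was 864, 296, 404 and 473 in KI and 205, 255, 249 and 162 in WT in cortex at PWK 14 (1.13 ± 0.27, adjusted p = 0.0394), a call that 6 of 8 single-library omissions removed, up to an adjusted p of 0.108 without WT replicate 1. Col1a1 also rose in hippocampus at PWK 14, by 0.72 ± 0.16, adjusted p = 0.0165. Col1a2, its partner in type I collagen, was called in no KI comparison.

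Col11a1 and Col11a2, partners in type XI fibrils, were each called in 1 region. Col11a1 was 1559, 748, 1587 and 1164 in KI and 645, 638, 461 and 561 in WT in cortex at PWK 28 (1.08 ± 0.22, adjusted p = 0.00607), without overlap, and 887, 630.3, 793 and 669 and 840.3, 925, 944 and 660.2 in hippocampus (-0.18 ± 0.13, adjusted p = 0.401). The KI effect on Col11a1 was lower in hippocampus than in cortex by -1.26 ± 0.28, adjusted p = 0.0146, and this call held without any single library. Col11a2 was 1806, 1321, 1557 and 1695 in KI and 1036, 916, 1161 and 1117 in WT in hippocampus at PWK 28 (0.59 ± 0.10, adjusted p = 0.00299). The difference of its KI effect between the regions was not called. Col24a1 was the one fibrillar chain that fell, with 132, 163, 60.7 and 73.8 in KI and 337, 214, 536 and 617 in WT in cortex at PWK 28 (-1.98 ± 0.37, adjusted p = 0.00466), and every KI library was below every WT library. In hippocampus at PWK 28 it was 14.2, 11.2, 44.6 and 38.6 and 44.96, 42.7, 202 and 97.4, which did not pass (-1.73 ± 0.54, adjusted p = 0.0535). Col5a1 in cortex at PWK 28 rose by 0.52 ± 0.16, adjusted p = 0.0394, and 6 of 8 omissions removed that call. Col2a1 was not called in any KI comparison.

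**Figure D4:**
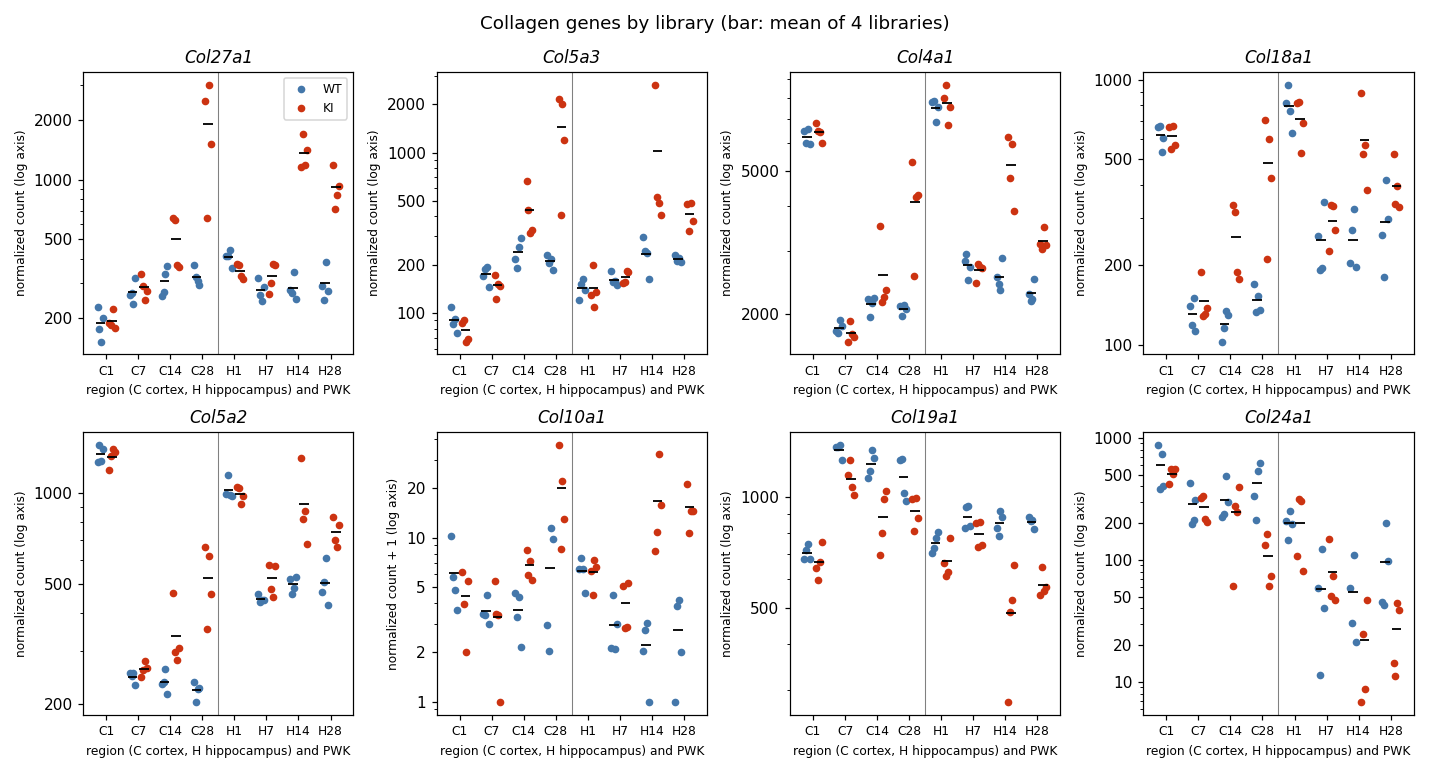
Normalized counts by library (vertical axes, log scale, count + 1 for Col10a1) of 8 collagen genes in WT (blue) and KI (red), by region and postnatal week (C, cortex, H, hippocampus), with a bar at the mean of the 4 libraries of a group. In cortex at PWK 28, the 4 KI libraries of Col27a1 lie between 639 and 3021 and the WT libraries between 295 and 373, and in hippocampus at PWK 14 a single KI library of Col5a3 reaches 2652.

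The main basement membrane chains rose together. Col4a1 was 5316, 2557, 4236 and 4284 in KI and 2110.2, 1982, 2125 and 2066 in WT in cortex at PWK 28 (0.94 ± 0.17, adjusted p = 0.00441). In hippocampus it was 6235, 4780.2, 5946 and 3875 and 2538, 2422, 2331 and 2863 at PWK 14 (1.02 ± 0.14, adjusted p = 0.00252), and 3031 to 3496 and 2182 to 2512 at PWK 28 (0.48 ± 0.06, adjusted p = 5.49e-04). Col4a2 was 4069.6, 5203, 4423 and 5164 in KI and 3080.4, 3316, 3231 and 3022 in WT in hippocampus at PWK 28 (0.57 ± 0.08, adjusted p = 8.22e-04), with log2 fold changes of 0.91 in cortex at PWK 28 and 0.67 in hippocampus at PWK 14. Neither chain overlapped between genotypes in these comparisons, and no omission of a single library removed a call. Vascular cell markers moved beside them in part. The 8 endothelial markers summed to 5239 to 6861 in KI and 5005 to 6320 in WT in cortex at PWK 28, and the 8 mural markers to 5048 to 10154 and 4705 to 5850. In hippocampus at PWK 14 the endothelial sums were 6556 to 9221 and 6823 to 7148 and the mural sums 6973 to 14658 and 6174 to 6507, and their part in the collagen changes was not tested.

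The X-linked chain Col4a5 was called in hippocampus at both late ages, at 0.77 ± 0.23, adjusted p = 0.0493 at PWK 14 and 0.53 ± 0.15, adjusted p = 0.0382 at PWK 28. These calls were less firm, since 6 of 8 omissions removed the first, up to an adjusted p of 0.131 without WT replicate 2, and 4 of 8 the second, up to 0.11 without WT replicate 1. The choroid plexus covariate also removed the first (adjusted p = 0.0576). In cortex at PWK 28 it was 162, 181, 131 and 134 in KI and 231, 207, 190.2 and 175 in WT (-0.41 ± 0.15, adjusted p = 0.0702), and in hippocampus 468, 536, 365 and 393 and 252, 257, 349 and 364. The difference of the KI effects between the regions at PWK 28 was 0.94 ± 0.22, adjusted p = 0.0206, and it missed the threshold only without hippocampal WT replicate 1 (adjusted p = 0.0507). Col4a6, which starts 1343 bases from Col4a5 on the other strand, was not called in any KI comparison, nor were Col4a3 and Col4a4. Without KI replicate 1, Col4a6 passed in hippocampus at PWK 14 (0.64 ± 0.17, adjusted p = 0.0318).

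Of the multiplexins, Col18a1 rose and Col15a1 fell. Col18a1, the source of the endostatin fragment, was 708, 211, 599 and 426 in KI and 169.6, 132, 153 and 136 in WT in cortex at PWK 28 (1.58 ± 0.31, adjusted p = 0.00552). At PWK 14 it was 336, 318, 188 and 177 and 103, 115, 134 and 129 in cortex (1.03 ± 0.21, adjusted p = 0.0215), and 893, 525, 566 and 384 and 203, 271, 325 and 195 in hippocampus (1.21 ± 0.25, adjusted p = 0.013). The genotypes did not overlap in any of these, and the cortical call at PWK 14 was lost in 3 of 8 omissions, up to an adjusted p of 0.0735 without WT replicate 1. Without KI replicate 1, the hippocampal value at PWK 14 was 0.99 ± 0.20, adjusted p = 0.00911. Col15a1 was 107, 86.6, 140.3 and 165 in KI and 327, 243, 197 and 259 in WT in hippocampus at PWK 28 (-1.05 ± 0.21, adjusted p = 0.00626), with every KI library lower.

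Col10a1 showed the largest fold change of the family at very low levels. In hippocampus it was 7.33, 9.80, 31.3 and 14.8 in KI and 1.03, 1.75, 2.04 and 0 in WT at PWK 14 (2.85 ± 0.53, adjusted p = 0.00847), and 20.3, 9.76, 13.6 and 13.6 and 0, 2.85, 3.15 and 1.01 at PWK 28 (2.64 ± 0.50, adjusted p = 0.00511). The KI libraries were all above the WT libraries, of which one at each age was listed at 0, and the scale with its pseudocount of 1 understates a change at this level. The cortical libraries at PWK 28 held 35.8, 7.60, 21.3 and 12.00 in KI and 1.96, 1.04, 10.5 and 8.84 in WT, which did not pass (1.77 ± 0.65, adjusted p = 0.075). The other short-chain genes, Col8a1 and Col8a2, were not called with the knock-in, and in hippocampus at PWK 14 Col8a1 was 85.4, 159.7, 749 and 614 in KI libraries whose choroid plexus sums were 2153, 18977, 103762 and 90931. The choroid plexus sum was also used as a covariate, an alternative chosen after seeing the data. With it, 15 members were called in hippocampus at PWK 14 (11 higher, 4 lower) and 15 at PWK 28 (8 higher, 7 lower). The share of all genes called in that fit is not given here, so a general change in calls cannot be told apart. At PWK 14 Col5a3 (1.92, adjusted p = 0.0224), Col20a1 (1.06, adjusted p = 0.0266) and Col14a1 (-1.01, adjusted p = 0.0199) then passed, and Col4a5 did not (adjusted p = 0.0576). At PWK 28 Col8a1 (-0.36), Col17a1 (-1.06), Col24a1 (-1.85) and Col6a2 (-0.67) then passed as lower, with adjusted p = 0.0307, 0.0396, 0.0317 and 0.0455.

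The fibril-associated chains were split. Col19a1 fell in 3 comparisons, with 543, 647, 557 and 571 in KI and 885, 862, 867 and 819.5 in WT in hippocampus at PWK 28 (-0.57 ± 0.07, adjusted p = 4.48e-04), and 278, 487, 526 and 655 and 828, 787, 921 and 882 at PWK 14 (-0.87 ± 0.22, adjusted p = 0.0269). In cortex at PWK 14 it was 698, 803, 989 and 1043 and 1127, 1178, 1344 and 1283 (-0.50 ± 0.12, adjusted p = 0.0388). All KI libraries were below all WT libraries, and the lowest at PWK 14 in hippocampus was KI replicate 1, without which the value was -0.63 ± 0.11, adjusted p = 0.00453. The PWK 28 call held whichever library was left out, while 5 of 8 omissions removed the cortical one, up to an adjusted p of 0.11 without WT replicate 3. Col16a1, which binds fibrils and integrins, was 3283, 1036, 1132 and 1025 in KI and 581, 617, 605 and 553 in WT in hippocampus at PWK 14 (1.26 ± 0.33, adjusted p = 0.0308). Here too KI replicate 1 stood far above the others, and without it the rise was 0.85 ± 0.07, adjusted p = 2.08e-04. Col16a1 fell in cortex at PWK 28, from 1274, 1078, 1035 and 1086 in WT to 865, 704, 831 and 701 in KI (-0.53 ± 0.10, adjusted p = 0.00378). At PWK 14 its KI effect was higher in hippocampus than in cortex by 1.55 ± 0.37, adjusted p = 0.0345, although 10 of 16 omissions removed that call, up to an adjusted p of 0.0706 without cortical WT replicate 1.

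Col14a1 was 54.1, 47.7, 39.1 and 38.4 in KI and 84.1, 78.2, 62.7 and 69.2 in WT in cortex at PWK 28 (-0.71 ± 0.19, adjusted p = 0.0229), and 5 of 8 omissions removed the call. Col12a1 was 1237, 983, 1166 and 891 and 1719, 1488, 1335 and 1816 in cortex at PWK 14 (-0.57 ± 0.12, adjusted p = 0.0231), and 4 of 8 omissions removed it. Neither gene overlapped between the genotypes. Col12a1 in hippocampus at PWK 14 was 2896, 615, 639 and 769 in KI and 492, 490.2, 568 and 377 in WT (1.02 ± 0.44, adjusted p = 0.143), again with KI replicate 1 far above the rest, and without it 0.49 ± 0.14, adjusted p = 0.0374. The type IX chains Col9a1, Col9a2 and Col9a3, together with Col20a1 and Col22a1, were not called with the knock-in.

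Of the transmembrane collagens, Col25a1 and Col23a1 fell in hippocampus. Col25a1 was 2137, 2416, 2181 and 2105 in KI and 3390.5, 3008, 3036 and 3024 in WT at PWK 14 (-0.50 ± 0.07, adjusted p = 0.00204), and 1954, 2316, 1904 and 2042 and 2919, 2769, 2546 and 2735 at PWK 28 (-0.42 ± 0.07, adjusted p = 0.00211). No KI library reached a WT library, and both calls held in every omission. In cortex at PWK 28 Col25a1 was 3050.2, 1404, 2418 and 2353 and 1623, 1689, 1715 and 1791, which did not pass (0.38 ± 0.18, adjusted p = 0.165). The difference of the KI effects between regions was -0.80 ± 0.22, adjusted p = 0.042, a call that 14 of 16 omissions and the replicate block removed. Col23a1 was 255, 371, 429 and 483 in KI and 690.1, 811, 775 and 429 in WT at PWK 14 (-0.81 ± 0.24, adjusted p = 0.0474), with overlap, and without KI replicate 1 it was -0.63 ± 0.20, adjusted p = 0.0619. Col13a1 and Col17a1 were not called, and Col17a1 at PWK 14 ran from 15.3 to 82.8 in KI and 0.853 to 46.8 in WT hippocampus.

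Of the beaded filament chains, 2 rose and 1 fell in cortex at PWK 28. Col6a2 was 415, 838, 592 and 542 in KI and 1109, 896, 1047 and 859 in WT (-0.75 ± 0.18, adjusted p = 0.0151), with every KI library lower, whereas its partner Col6a1 ran from 2547 to 4234 in KI and 3239 to 3944 in WT. Col6a5 was 108, 45.96, 126 and 83.6 and 56.9, 18.3, 27.9 and 21.2 (1.56 ± 0.39, adjusted p = 0.0172), with overlap, and 3 of 8 omissions removed the call. Col6a3 rose by 0.71 ± 0.19, adjusted p = 0.0217, and 5 of 8 omissions removed it. Markers of fibroblasts and meninges were lower in the same libraries, with sums of 2450, 2474, 2608 and 2084 in KI and 4644, 3604, 3550 and 3200 in WT. Of the 8 genes in that list 3 rose, among them Lum and Dcn, and 3 fell, Igf2, Slc6a13 and Ogn. The sum of the 4 cortical markers was also lower there, at 3006 to 5561 in KI and 7886 to 9633 in WT, and the part of either in the collagen values was not tested. In hippocampus at PWK 28 astrocyte markers summed to 71271 to 82983 in KI and 42631 to 44272 in WT, and their part was not tested either. Col6a1, Col6a4, Col6a6, Col28a1, Col7a1 and Col26a1 were called in no KI comparison.

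Differences of the KI effect between regions were called for 2 members at PWK 14, both higher in hippocampus (1.64% of all genes were called higher and 1.2% lower), and for 3 at PWK 28, 1 higher and 2 lower (2.39% and 2.18%). These were Col27a1 and Col16a1 at PWK 14, and Col4a5, Col11a1 and Col25a1 at PWK 28, whose values stand above. The PWK 14 count was 4 without cortical KI replicate 1 or hippocampal KI replicate 4 and 1 in most other omissions, and the PWK 28 count was 10 without cortical KI replicate 2, 5 without hippocampal KI replicate 2 and 1 without hippocampal WT replicate 1. For the change of the KI effect from PWK 14 to PWK 28, limma called 0 members in cortex and 0 in hippocampus, against 0.0% of all genes in both. At an unadjusted p under 0.05, the members numbered 8 and 9, beside 15.1% and 12.4% of all genes. A fit of all 64 libraries together called 7 and 1, and leaving out one library gave 5 in cortex without KI replicate 1 at PWK 14, 6 without KI replicate 2 at PWK 28, and 2 in hippocampus without KI replicate 4 at PWK 14. For single members, a change of the KI effect between these ages was thus not shown. The shares of all genes called without single libraries, or in the fit of 64 libraries, are not given here.

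Because the chains of one collagen type have to meet in a helix, the ratios of 8 pairs of chains were compared in 6 comparisons, chosen after their values had been seen. Of the 48 exact permutation tests (two-sided, 4 against 4 libraries), 22 gave p = 0.0286, the smallest possible. Benjamini-Hochberg adjustment brought this to 0.0624 at the lowest, so that none passed. With so high a smallest value, no single ratio could pass by itself, so the adjusted values do not decide on single ratios. Ratios of other gene pairs were not compared. The ratios are of normalized counts and are described by their geometric means. Col4a1 to Col4a2 was 0.898 in KI and 0.705 in WT in hippocampus at PWK 14, without overlap, and 0.648 and 0.636 in cortex at PWK 28, with overlap (exact permutation p = 0.857). Col5a1 to Col5a2 was 3.98 in KI and 6.34 in WT in cortex at PWK 28, and 1.35 and 1.96 in hippocampus. Col6a2 to Col6a1 at PWK 28 was 0.170 in KI and 0.274 in WT cortex, and 0.183 in KI and 0.318 in WT hippocampus. The genotypes were apart in all 4 of these last comparisons. Col1a1 to Col1a2 was 0.562 in KI and 0.366 in WT in cortex at PWK 14, and 0.555 and 0.425 in hippocampus at PWK 28. KI and WT at PWK 7 were not among the comparisons. There this ratio ran from 0.460 to 0.550 in KI and 0.299 to 0.381 in WT cortex. In hippocampus at PWK 7 it overlapped, at 0.465 to 0.476 in KI and 0.465 to 0.611 in WT. Col11a1 to Col11a2 was higher in KI cortex at PWK 28, at 1.39 against 0.655, and lower in KI hippocampus, at 0.466 against 0.792, without overlap in either region.

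**Figure D5:**
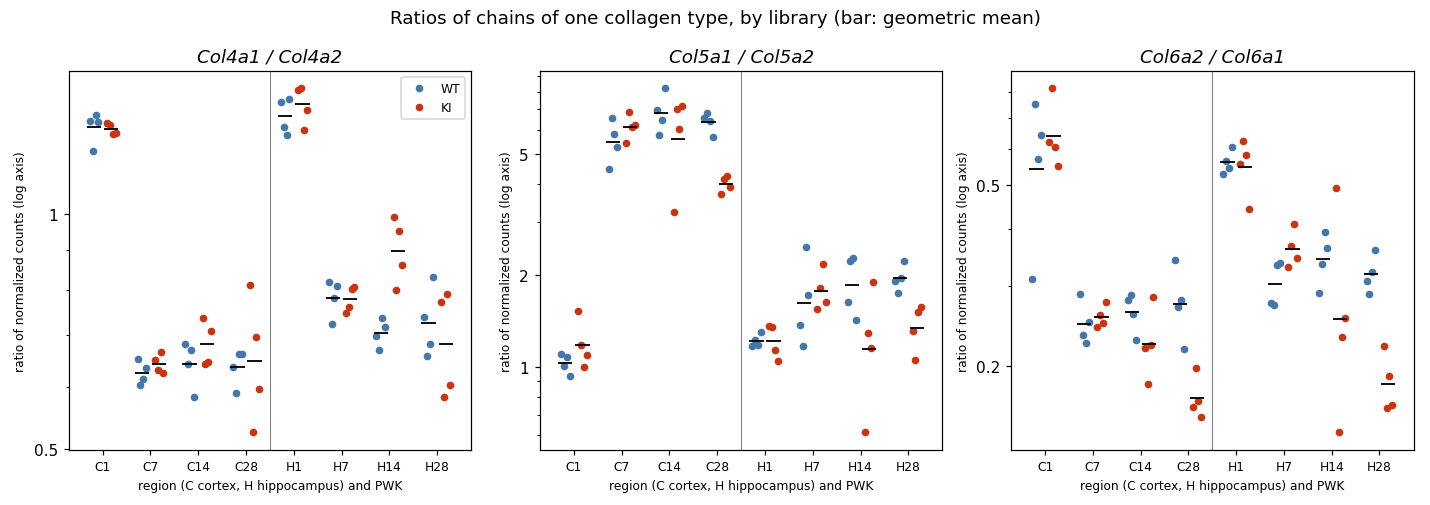
Ratios of the normalized counts of 3 pairs of chains by library (vertical axes, log scale) in WT (blue) and KI (red), by region and postnatal week (C, cortex, H, hippocampus), with a bar at the geometric mean of 4 libraries. Col4a1 to Col4a2 drops from 1.30 at PWK 1 to 0.626 at PWK 7 in WT cortex, and Col5a1 to Col5a2 and Col6a2 to Col6a1 are lower in KI than in WT at PWK 28.

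The genes that fold, process, cross-link, bind and degrade collagen were taken from 6 fixed lists. None of them was called with the knock-in at PWK 1 or PWK 7 in either region. Of the 16 basement membrane partners, 1 rose in cortex at PWK 14, 6 in cortex at PWK 28, and 6 and then 3 hippocampal ones at the same ages, and none fell. Over all genes tested, 2.48% and 12.2% rose in cortex at PWK 14 and PWK 28 and 7.64% and 8.92% in hippocampus, and 2.7%, 10%, 7.95% and 6.91% fell, which are the shares beside which the counts of all 6 lists stand. With lists of 9 to 18 genes, a single gene is a large share of a list. Of 72 calls of genes listed by the naming rule, 44 held whichever library was left out and 28 were lost in at least one omission. Sparc, which binds collagen during its secretion and assembly, rose in all 4 comparisons, by 0.67 and 0.89 in cortex (adjusted p = 0.012 and 0.00215) and 1.19 and 0.74 in hippocampus (0.0201 and 1.40e-04). Lama2 (0.81) and Lamc3 (0.79) rose in cortex at PWK 28, Nid1 (0.80) and Lama4 (0.76) in hippocampus at PWK 14, and Lama3 (0.70) at PWK 28. All are laminin chains or the nidogen that links laminin to type IV collagen. In hippocampus at PWK 14, the Nid1 call was lost in 6 of 8 omissions, the Sparc call in 3 and the Lama4 call in 2. The calls of Lama2, Lamc3 and Lama3 held in every omission.

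Of the 13 genes of maturation and cross-linking, none was called in cortex at PWK 14, while 3 rose and 1 fell in cortex at PWK 28, 3 rose and 2 fell in hippocampus at PWK 14, and 3 rose and 1 fell at PWK 28. Lox, the lysyl oxidase that starts cross-links in collagen and elastin, ran from 31.2 to 129.5 in KI and 13.8 to 19.8 in WT in cortex at PWK 28 (1.48, adjusted p = 0.0264). In hippocampus it ran from 91.1 to 214 in KI and 17.3 to 31.01 in WT at PWK 14 (2.37, adjusted p = 0.00179) and from 29.9 to 67.3 in KI and 9.91 to 29.3 in WT at PWK 28 (1.57, adjusted p = 0.0145). Tll1, a protease of the procollagen C-propeptide group, rose by 1.31, 2.22 and 1.01 in the same comparisons. Further lysyl oxidase-like genes rose in one comparison each, Loxl2 (1.45) in cortex at PWK 28, Loxl1 (1.27) in hippocampus at PWK 14 and Loxl3 (0.65) at PWK 28. These calls were lost in 6, 3 and 6 of 8 omissions, and the Lox call in cortex in 3. Adamts2, the procollagen N-proteinase, fell in hippocampus (-0.98 and -0.56), and the proteinase enhancer Pcolce2 fell in cortex at PWK 28 (-0.63). Single-library omissions removed the Adamts2 calls in 4 and 6 of 8 cases and the Pcolce2 call in 6 of 8. Of the 18 synthesis and folding genes, 1 rose and 1 fell in cortex at PWK 14, 2 rose and 2 fell there at PWK 28, and in hippocampus 3 rose and 2 fell at PWK 14 and 2 rose and 3 fell at PWK 28. The lysyl hydroxylase Plod2 rose in all 4 (0.66, 1.08, 0.64 and 0.46), although the first call was lost in 7 of 8 omissions and the third in 3. The prolyl 4-hydroxylase subunit P4ha3 rose in hippocampus (2.20 and 0.69). Its PWK 14 value was raised by KI replicate 1, without which it was 1.54 ± 0.21, adjusted p = 0.00174, and 4 of 8 omissions removed the call, up to an adjusted p of 0.0778 without WT replicate 4. Other prolyl hydroxylases fell, with P4ha1 at -0.42 and -0.47 in cortex, and P3h3 at -0.84 in cortex at PWK 28 and -0.70 and -0.70 in hippocampus.

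Of the 11 turnover genes tested, 2 rose in cortex at PWK 14, 3 at PWK 28, and 2 in hippocampus at each age, and none fell. Timp1, an inhibitor of matrix metalloproteinases, ran from 62.3 to 876 in KI and 2.10 to 6.46 in WT in hippocampus at PWK 14 (4.64, adjusted p = 0.00594) and rose by 1.95 at PWK 28. Without KI replicate 1 the PWK 14 value was 3.70 (adjusted p = 3.33e-04). Timp2 rose by 0.83 and 1.29 in cortex and 0.76 and 0.55 in hippocampus. Ctsk, the collagen-cleaving cathepsin K, rose by 1.06 in cortex at PWK 28. Of the 9 receptors tested, 1 rose and 1 fell in cortex at PWK 14, 1 rose at PWK 28, and 3 rose in hippocampus at each age. Of the collagen-binding integrin subunits, Itga11 was called in cortex (1.55 and 0.85), and Itga2 (3.61 and 1.90) and Itga1 (0.68 and 0.34) in hippocampus. The receptor kinase Ddr1 was called in hippocampus too (0.76 and 0.50). Single-library omissions removed the Itga11 call at PWK 28 in 6 of 8 cases and the Itga1 calls in 6 and 1. They removed the Ddr1 call at PWK 14 in 3 of 8 cases, whereas both Itga2 calls held. The KI effect on Itga2 was larger in hippocampus than in cortex at PWK 14 (3.27 ± 0.74, adjusted p = 0.0286) but the difference did not pass at PWK 28 (adjusted p = 0.452). For Itga11, Itga1 and Ddr1 the difference between regions passed at neither age (lowest adjusted p = 0.0578, Itga11 at PWK 14). Adgrg1, a receptor for type III collagen, fell in cortex at PWK 14 (-0.32), a call that 6 of 8 omissions removed. Of the 13 fibril partners tested, 4 rose in cortex at PWK 14, 4 rose and 2 fell at PWK 28, and 2 rose and 2 fell in hippocampus at each age. Lumican (Lum), a small proteoglycan that coats fibrils, rose in all 4 (1.36, 1.21, 0.71 and 0.80), and decorin (Dcn) rose in cortex (0.88 and 0.70). The Lum calls at PWK 14 were lost in 3 of 8 omissions in cortex and 4 in hippocampus, and the Dcn call at PWK 28 in 2. Osteoglycin (Ogn) fell in cortex at PWK 28 (-0.96) and in hippocampus (-1.30 and -1.27). Tenascin X (Tnxb), which bridges fibrils, fell in hippocampus (-1.31 and -1.08), and Prelp fell in cortex at PWK 28 (-1.05). In WT mice from PWK 1 to PWK 7, 14 of the 18 synthesis and folding genes fell in cortex and 13 in hippocampus. Of the 16 basement membrane partners, 11 fell in each region, against 32.7% and 30.4% of all genes. The genes of these lists that rose, and the other lists between these ages, are not given here.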

How the data were processed

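Bulk RNA-seq libraries were prepared from 16 groups of 4 libraries, with the kit given as TruSeq Stranded mRNA in the labels. Per the labels, the authors estimated transcript abundance with Salmon (0.11.2) on GRCm38 and normalized it with DESeq2 (1.19.11) in R (3.6.0); the study's methods name later versions. The deposited table holds this signal, estimated gene counts divided by size factors over all 64 libraries, for 18432 genes, and the lowest gene mean was 4.25, so weakly expressed genes had been removed. Values were not whole, so a count test was not used, and the fallback of the same plan was taken: limma-trend (limma 3.58.1, R 4.3.3) on log2(value + 1), genes with a mean of at least 1 in the libraries of a fit, without covariates, with Benjamini-Hochberg adjustment over all genes tested. The fits were tested on simulated data. The log2 scale with this pseudocount understates changes of low genes. Tables and figures were made in Python 3.11.15 with pandas 2.3.3, SciPy 1.17.1 and matplotlib 3.10.9. GENCODE symbols matched all but 12 table IDs.

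KI was compared with WT within a region and age, 4 against 4 libraries. WT ages and regions were compared with the same libraries, and interactions with all 16 libraries of an age or region. Values by library were named by rule: up to 6 called members per direction in KI and age comparisons, up to 4 in region comparisons, with a mean of at least 10 in the higher group, up to 4 called members per interaction, the 10 highest per kb of exon, and up to 4 called genes per partner list; members outside it are named by their range or, where a lost call or a partner chain made them relevant, were named after their values were seen. The members and lists were chosen with earlier results of these data known. Sequences came from RefSeq's promoter table (GRCm38.p6). Alternatives were a pseudocount of 8, a filter at a mean of 10 and none, total-sum scaling, one fit of all 64 libraries, a correction for GC content and length, the replicate number as a block, and leaving out each library. A gene of the basement membrane list, counted in that list's totals, is not reported here by its own values.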

Additional observations from a re-analysis of the deposited data

Results flagged for a closer look

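Of 171 group values tested for a single library far from the other 3 (Dixon's gap test), 12 stood out, and chance gives about 1 in 20 groups. In KI groups these were Col16a1 in hippocampus at PWK 14, where replicate 1 held 3283 normalized counts beside 1025 to 1132, and Col3a1 in cortex at PWK 28, where replicate 1 held 410.8 beside 201 to 221. Not every group of every member was tested. Col5a3 and Col12a1 in KI hippocampus at PWK 14, where replicate 1 also stood far above the others, are not among the 12. In WT cortex at PWK 1, replicate 1 held 2578 of Col6a1 beside 1056 to 1245 and 416.9 of Col8a1 beside 627 to 664. At PWK 7, WT cortical replicate 1 held 2444 of Col6a1 beside 3012 to 3078 and 47.49 of Col4a4 beside 27.4 to 28.5, in a library with a choroid plexus marker sum of 1189 beside 233 to 270. Replicate 3 held 236.9 of Col6a3 beside 135 to 148, and replicate 4 held 1263 of Col19a1 beside 1371 to 1389. WT cortical replicate 4 at PWK 14 held 34.75 of Col28a1 beside 55.6 to 56.9. WT cortical replicate 2 at PWK 28 held 258 of Col8a1 beside 97.6 to 116, with a choroid plexus marker sum of 22240. In WT hippocampus, replicate 2 at PWK 1 held 4059 of Col1a2 beside 2464 to 2735, and replicate 1 at PWK 14 held 3390 of Col25a1 beside 3008 to 3036.

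A difference of the KI effect between hippocampus and cortex was called in limma's interaction term for 5 members. At PWK 14 it was 1.595 on the log2 scale for Col27a1 (adjusted p = 0.00608) and 1.55 for Col16a1 (0.0345). At PWK 28 it was -1.26 for Col11a1 (0.0146), 0.9372 for Col4a5 (0.0206) and -0.8023 for Col25a1 (0.042). Of all genes, 1.64% were called higher and 1.2% lower at PWK 14, and 2.39% and 2.18% at PWK 28. Most omissions of a single library removed the Col16a1 and Col25a1 calls, and omitting hippocampal WT replicate 1 removed the Col4a5 call.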

How the results depend on the processing

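No called value of a member changed sign under any alternative run, in 3597 alternative values. Of 659 values that were not called, 230 changed sign in at least one, among them Col2a1 in hippocampus at PWK 14 without KI replicate 1 (-0.23 in place of 0.14). Of the called values that the naming rule lists, 728 of 840 kept their call when a library was left out and 785 of 816 under the other settings. With one fit of all 64 libraries the members called were 21 in place of 13 with the knock-in in hippocampus at PWK 14 (18 higher, 3 lower), 1 in place of 7 from PWK 7 to PWK 28 in WT cortex and 1 in place of 2 in WT hippocampus, 14 in place of 24 between regions at PWK 1, 6 in place of 2 and 7 in place of 3 for the difference of KI effects between regions at PWK 14 and PWK 28, and 7 and 1 in place of 0 for its change with age in cortex and hippocampus. Without a filter on low values, 2 members in place of 4 were called in cortex at PWK 14. With the replicate block, alone or with the GC content and length correction, 7 in place of 2 were called from PWK 7 to PWK 28 in WT hippocampus, 5 in place of 2 and 7 in place of 3 for the differences between regions. The labels tie a number to no mouse or litter. Over 12819 genes, same-numbered libraries of cortex and hippocampus had a mean correlation of deviations of 0.14 (over 0.1 in 17 of 32 pairs) and differently numbered ones of -0.046, and those of KI and WT had 0.026 (over 0.1 in 10 of 32), so pairing across regions was not settled by this check. With the replicate block, the KI counts were 3 in cortex and 12 in hippocampus at PWK 14, and 16 and 13 at PWK 28. Directions moved in hippocampus at PWK 28, where 8 rose and 3 fell, to 7 and 5 with total-sum scaling, 8 and 6 with the GC content and length correction, 7 and 6 with the block and 8 and 7 with the choroid plexus covariate. In cortex at PWK 14, with 2 and 2, they were 2 and 1 with total-sum scaling, 4 and 1 in the fit of 64 libraries, 4 and 2 with the GC content and length correction and 1 and 2 with the block. The shares of all genes called under these settings are not given here, and the causes of these shifts were not tested.

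Leaving out each library in turn gave 0 to 1 members in cortex at PWK 7, 0 to 6 at PWK 14 and 12 to 22 at PWK 28, and 7 to 15 and 10 to 13 in hippocampus at PWK 14 and PWK 28. From PWK 1 to PWK 7 it gave 33 to 37 in WT cortex and 33 to 35 in WT hippocampus, and from PWK 7 to PWK 28 it gave 3 to 9 and 1 to 5. Between regions it gave 21 to 23, 21 to 26, 19 to 24 and 21 to 25 at the 4 ages. For the difference of KI effects between regions it gave 1 to 4 and 1 to 10, and for the change with age 0 to 6 and 0 to 2. The shares of all genes called in these omissions are not given here, so a general change in calls cannot be told apart. Depth could not be judged from normalized values, and changes of members with few counts, Col10a1 above all, are the least precise.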
